A study of Mus musculus with 39 samples.

Results

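The genes described here are the mitochondrial carrier family Slc25 together with the uncoupling proteins, which belong to the same family. Members were taken from the array's probe annotation, as every gene whose single symbol begins with Slc25a, plus Ucp1, Ucp2 and Ucp3 where present. This gave 36 genes of the 13840 that the annotation names by a single symbol. They are Ucp1, Ucp3 and 34 Slc25a genes, and Ucp2 was not analysed here. Slc25a36 and Slc25a37 each had 2 probes, and the probe with the higher mean over the 39 arrays stood for the gene. Of the 36 genes, 35 had a value on every array and entered the tests. The chosen probe of Slc25a41, an ATP-Mg/phosphate carrier, lacked 1 value.

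Total liver RNA came from adult male mice of the 129SV background, either wild type or PPARα-null, which lack the nuclear receptor PPARα. The mice received PFOA (perfluorooctanoic acid, given as the ammonium salt) at 1 or 3 mg/kg with deionised water as vehicle, or Wy14,643, a synthetic activator of PPARα, at 50 mg/kg with 0.5% methylcellulose as vehicle. All 10 groups were dosed by gavage over 7 days: in each genotype a water group, both PFOA groups, a methylcellulose group and a Wy14,643 group. The study names 4 animals per group, and the labels do not say how the null allele was made. There were 4 arrays in 9 of the groups, and 3 in the wild-type methylcellulose group. Values are log2 signals of single probes and are compared between groups for the same gene only. The chosen probes of 23 carriers had a mean signal above the median probe of the table and those of 13 lay at or below it, and differences of dim probes are the less precise.

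Slc25 proteins sit in the inner membrane of the mitochondrion and move metabolites across it, most of them by exchanging a solute of the matrix for one of the cytosol. In the liver they serve the export of ATP, the import of acylcarnitines for beta oxidation, the malate-aspartate shuttle, the citrate shuttle of lipid synthesis and the ornithine step of the urea cycle. Slc25a20, the carnitine-acylcarnitine carrier, brings acylcarnitines made by carnitine palmitoyltransferase 1 into the matrix and returns free carnitine. PPARα is a fatty acid sensor that binds DNA together with RXR, commonly at 2 AGGTCA half-sites in tandem that are separated by 1 base, a motif called DR1.

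The 4 stretches printed here are the only places in the carriers' promoter windows that match DR1 with at most 2 mismatches, and they are shown because PPARα status and PPARα activators define the study's groups. The windows run from 250 bases before to 50 bases after each annotated start (RefSeq, mouse build GRCm38.p6), and 27 of the 36 genes had at least 1 window, 36 windows in all. The motif AGGTCANAGGTCA was searched on both strands, with N for any base. Capitals mark the match, and each stretch is on the plus strand, 5′ to 3′.
Slc25a20, chr9:108662134-108662163: ctgaatgtAGGTGAAAGGTCGgcggagccg
Ucp3, chr7:100472932-100472961: tcagaattAGGTTTCAGGTCAgctggtgca
Slc25a47, chr12:108850968-108850997: acctcccaTGACCTCTCACATgctttcccg
Slc25a45, chr19:5877764-5877793: agaacatgAGGTCAGAGGAGAagggcggta
The match in Slc25a20 begins at base 7 after the start, that in Ucp3 51 bases before it and that in Slc25a45 50 bases before it. In Slc25a47 the motif lies on the minus strand, 153 bases before the start. Such a match is in 11.1% of the carriers' windows, against 3.86% of 32851 windows of all genes. The exact motif is in none of the carriers' windows and in 0.0396% of all windows. A single AGGTCA half-site, which overlaps the DR1 search, is in the windows of Slc25a45, Slc25a47, Ucp1 and Ucp3, 11.1% of the carriers' windows against 16.3% of all. Such a match is a description of letters and does not show that a factor binds there.

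Slc25a20 differed more between the groups than its arrays differed within them, and its level followed genotype and treatment together. In wild-type mice the log2 level was 13.95, 14.07, 13.93 and 14.10 on the 4 water arrays and 15.82, 15.72, 15.47 and 15.97 at PFOA 3 mg/kg. The ranges do not overlap, and the lowest treated array lies above the highest water array. At PFOA 1 mg/kg it was 15.37, 15.41, 12.52 and 15.60. Replicate 3 of that group was more than 1 log2 unit below every other wild-type array, and the other 3 were above all water arrays. On methylcellulose the log2 level was 14.03, 14.38 and 13.93, and after Wy14,643 it was 14.34, 15.44, 15.89 and 15.38. Replicate 1 of the Wy14,643 group overlaps the methylcellulose arrays and the other 3 lie above them.

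In PPARα-null mice Slc25a20 had a log2 level of 12.08, 12.17, 12.10 and 12.35 on water, 12.62, 12.85, 12.26 and 12.69 at PFOA 1 mg/kg, and 13.40, 13.34, 12.61 and 13.33 at PFOA 3 mg/kg. All 4 arrays of the higher dose are above the null water arrays and below every wild-type array on water. On methylcellulose the null arrays read 12.15, 12.15, 11.80 and 12.58, and after Wy14,643 they read 11.80, 11.97, 12.20 and 12.14. These last groups overlap fully. By group mean the order from the lowest was null Wy14,643 at 12.03 ± 0.18 (SD, n = 4), null water and null methylcellulose both at 12.17, null PFOA 1 mg/kg at 12.61, null PFOA 3 mg/kg at 13.17, wild-type water at 14.01, wild-type methylcellulose at 14.11, wild-type PFOA 1 mg/kg at 14.72 ± 1.47 (SD, n = 4), wild-type Wy14,643 at 15.26 and wild-type PFOA 3 mg/kg at 15.75 ± 0.21 (SD, n = 4). Without its replicate 3 the wild-type PFOA 1 mg/kg mean was 15.46 ± 0.12 (SD, n = 3), which puts that group above wild-type Wy14,643 and below PFOA 3 mg/kg. Neighbours whose arrays overlap in that order are the null vehicles with null Wy14,643, null PFOA 1 mg/kg with both null vehicles and with null PFOA 3 mg/kg, both wild-type vehicles, wild-type methylcellulose with wild-type PFOA 1 mg/kg through the latter's replicate 3, and the 3 treated wild-type groups in part.

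**Figure D1:**
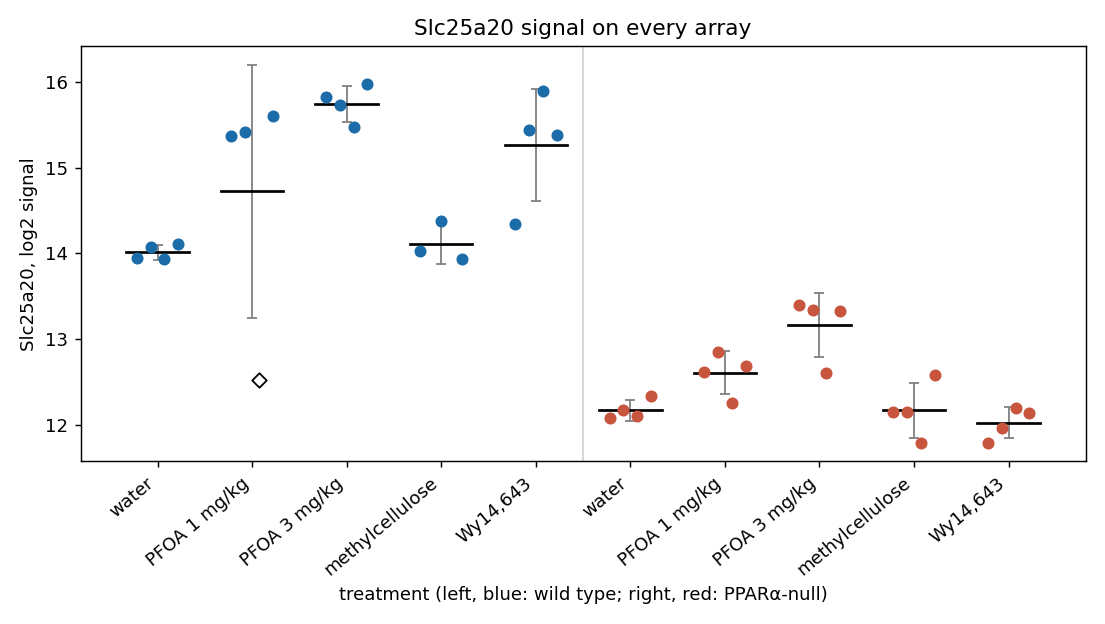
Log2 signal of Slc25a20 on each of the 39 arrays by treatment, wild type in blue on the left and PPARα-null in red on the right; bars are group means, error bars are 1 SD (n = 4, and 3 for wild-type methylcellulose), and the open diamond is the array whose label is replicate 3 of wild-type PFOA 1 mg/kg. The diamond at 12.52 lies among the null arrays, and the wild-type PFOA 3 mg/kg arrays, from 15.47 to 15.97, lie above both vehicle groups.

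The array whose label is replicate 3 of wild-type PFOA 1 mg/kg goes against its label. Cox6b2 separated the genotypes on all other arrays, and Ehhadh and Cyp4a14 were high on the other treated wild-type arrays. Cox6b2, a subunit of cytochrome c oxidase, had a log2 level of 9.06 on this array, against 16.38 to 16.95 on the other 3 arrays of that group and 6.91 to 10.05 on the null arrays. Ehhadh read 15.94 on it against 20.01 to 20.31 on the other 3, and Cyp4a14 read 11.65 against 20.21 to 20.28. The null arrays read 15.37 to 17.07 for Ehhadh and 6.53 to 14.89 for Cyp4a14. Wild-type water arrays read 15.74 to 16.38 and 11.79 to 15.47 for these 2 genes. Both ranges overlap those of the null arrays, so these 2 genes do not separate the genotypes without treatment. Not every carrier on it looks null, since Slc25a5 stood at 19.39, where the null arrays at the same dose ranged from 19.01 to 19.25. Results that change without this array are given both ways below. Across the table, 73 probes split the arrays into sets of 16 and 23 with a median difference of 4.54 on the log2 scale, a split that the labels do not name. All groups have arrays in both sets except wild-type Wy14,643, whose 4 arrays are all in the larger set. The sets go with the replicate numbers: all 10 arrays numbered 2 and 9 of 10 numbered 3 are in the larger set, and 8 of 10 numbered 1 and 7 of 9 numbered 4 are in the smaller. The silent-gene index is the mean over 583 probes of olfactory, vomeronasal, taste receptor and keratin-associated genes, chosen by name and taken as silent. It moved between 8.68 and 9.23 on the log2 scale and was 8.99 in wild-type water against 8.82 in wild-type PFOA 3 mg/kg. Its part in the carrier results was tested only as a covariate.

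At PFOA 3 mg/kg in wild-type mice the carriers with a called change moved in opposite directions: the carriers of acylcarnitines, ADP/ATP and pyrimidine nucleotides rose, and an ATP-Mg/phosphate carrier and the ornithine carrier fell. A change is called where limma's Benjamini-Hochberg adjusted p over all 25295 tested probes is under 0.05. By this rule 3 of the 35 carriers rose (Slc25a20, Slc25a33 and Slc25a5) and 2 fell (Slc25a23 and Slc25a15). That is 14.3% of the carriers, where 5.82% of all tested probes were called (3.37% up and 2.46% down). The median log2 difference was 0.14 over the carriers and -0.02 over all probes, with 23 carriers positive and 12 negative, so the family moved in both directions. The median absolute log2 difference was 0.42 over the carriers and 0.33 over all probes. By limma 13 carriers had an unadjusted p under 0.05. The share of all probes under that unadjusted threshold was not computed, here or below, so such counts do not show a change of the family. In whole liver, fewer cells of a type and less RNA per cell cannot be told apart.

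**Figure D2:**
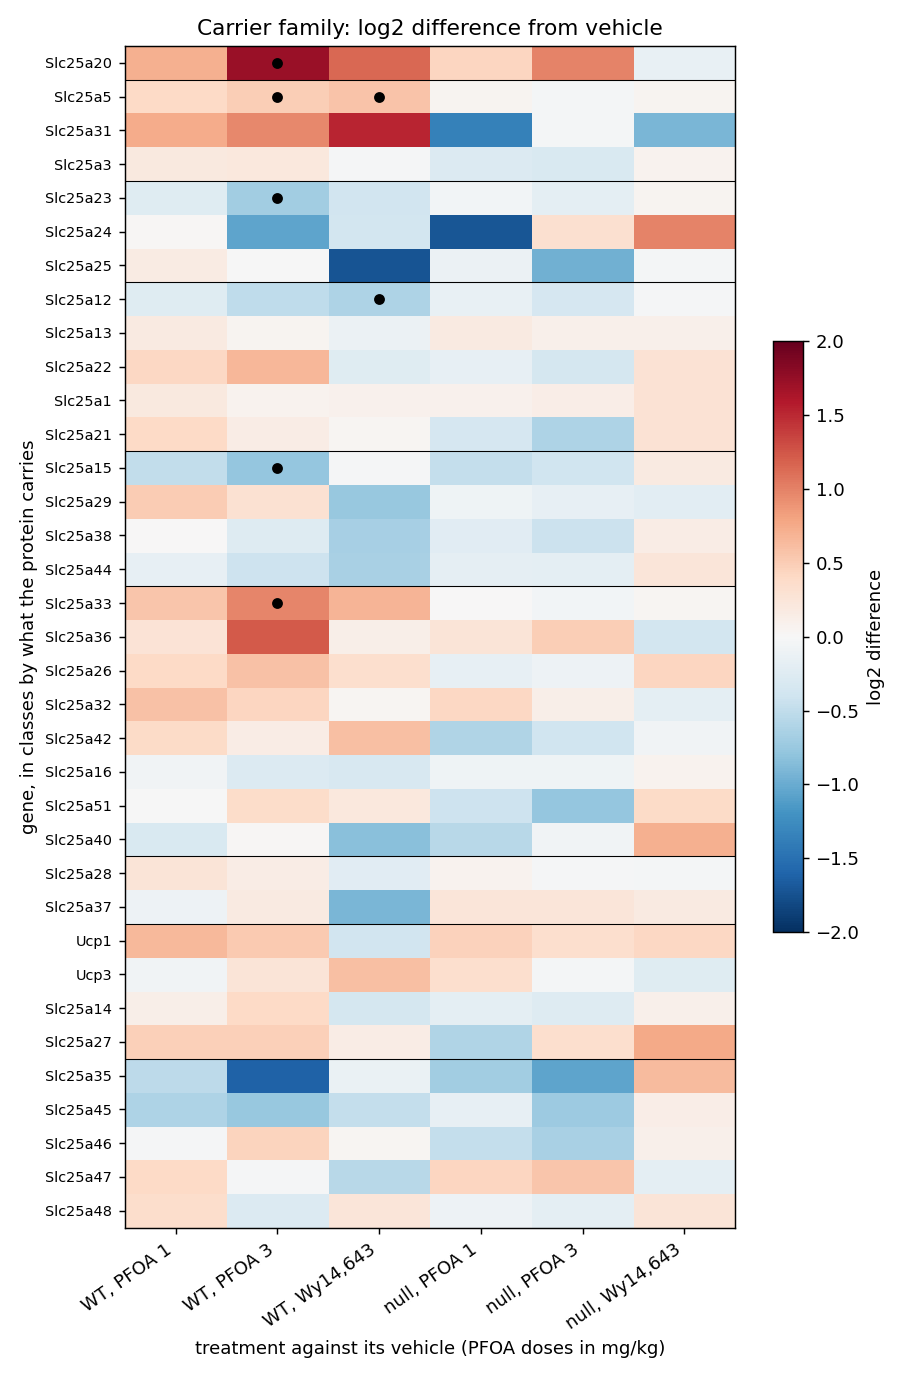
Log2 difference from the matching vehicle for the 35 tested carriers, in rows grouped by what they carry, with acylcarnitine at the top, followed by adenine nucleotides and phosphate, ATP-Mg/phosphate, glutamate, aspartate and carboxylates, other amino acids, nucleotides and cofactors, iron, the uncoupling proteins and other members; columns are the 6 treated groups and black dots mark differences with limma's adjusted p under 0.05. Dots appear in the wild-type columns only, 5 at PFOA 3 mg/kg and 2 after Wy14,643; pale colours in the null columns do not show that these genes did not respond there.

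Slc25a20 had the largest rise, 1.73 ± 0.39 (SE) on the log2 scale or 3.32-fold, with a limma adjusted p of 0.00524. Without the array that goes against its label the difference was the same and its SE 0.22, since the spread is estimated over all groups, and 4 carriers were then called, where 6.21% of all probes were. At PFOA 1 mg/kg the difference was 0.71 ± 0.39 with that array (limma adjusted p = 0.509). Without it the difference was 1.45 ± 0.24 (SE) with a limma adjusted p of 0.000596. After Wy14,643 the log2 difference was 1.15 ± 0.42, 2.22-fold, with a limma adjusted p of 0.0988, and without the same array the same difference had a limma adjusted p of 0.00280. The call at PFOA 3 mg/kg is lost within the larger array set alone (limma adjusted p = 0.206), where the difference stays between 1.59 and 1.89 over all alternatives.

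Slc25a5 is adenine nucleotide translocase 2, which exchanges matrix ATP for cytosolic ADP. In wild-type mice it had a log2 level of 19.07, 18.99, 19.00 and 19.08 on water and 19.47, 19.42, 19.68 and 19.52 at PFOA 3 mg/kg. After Wy14,643 it read 19.58, 19.30, 19.65 and 19.74, against 19.12, 18.75 and 19.11 on methylcellulose. Treated and vehicle arrays do not overlap for either compound. The log2 difference was 0.49 ± 0.12 (SE) for PFOA 3 mg/kg, 1.40-fold, with a limma adjusted p of 0.0100, and 0.57 ± 0.13 for Wy14,643, 1.49-fold, with a limma adjusted p of 0.00559. At PFOA 1 mg/kg the 4 arrays, 19.46, 19.52, 19.39 and 19.34, also lie above all water arrays, but the log2 difference of 0.39 ± 0.12 had a limma adjusted p of 0.188. In null mice it read 18.97, 19.13, 19.07 and 19.06 on water, 19.08, 19.01, 19.08 and 19.25 at PFOA 1 mg/kg and 19.04, 18.92, 19.09 and 19.02 at PFOA 3 mg/kg. On methylcellulose the null arrays read 19.04, 19.03, 19.00 and 18.79 and after Wy14,643 they read 18.95, 19.27, 18.76 and 19.09. The treated null arrays overlap those of their vehicle in every case. Without replicate 3 of the PFOA 3 mg/kg group the limma adjusted p for that dose is 0.0518, and without replicate 2 of wild-type methylcellulose that for Wy14,643 is 0.0655. The call at PFOA 3 mg/kg is also lost within either array set and with only the compared groups fitted. The call after Wy14,643 is also lost within the larger array set and with only the compared groups fitted. Of the other 2 carriers of this class, Slc25a3, the phosphate carrier of ATP synthesis, differed by 0.21 ± 0.18 on the log2 scale at PFOA 3 mg/kg. Slc25a31, a germ-cell ADP/ATP carrier, varied from 6.10 to 10.97 over the arrays and was called in no comparison.

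Slc25a33 carries pyrimidine nucleotides into the matrix. Its log2 level in wild-type mice was 13.45, 13.08, 13.17 and 13.88 on water and 14.14, 14.36, 14.32 and 14.68 at PFOA 3 mg/kg. The PFOA 3 mg/kg arrays are all above the water arrays. The log2 difference was 0.98 ± 0.29 (SE), with a limma adjusted p of 0.0428. That call is lost without replicate 1, 2 or 3 of water or replicate 2, 3 or 4 of PFOA 3 mg/kg (up to 0.143). It is also lost with the silent-gene index as a covariate, within either array set, with missing values allowed and with only the compared groups fitted. After Wy14,643 the level was 13.62, 13.69, 15.13 and 13.99, against 13.84, 12.97 and 13.46 on methylcellulose, a difference of 0.68 ± 0.32 on the log2 scale (limma adjusted p = 0.211). The lower PFOA dose gave 13.30, 14.07, 13.94 and 14.50, overlapping water. In null mice Slc25a33 read 13.26, 13.37, 13.42 and 13.97 on water, 13.44, 13.22, 13.50 and 13.90 at PFOA 1 mg/kg and 13.42, 13.04, 14.02 and 13.31 at PFOA 3 mg/kg. It read 13.74, 13.37, 13.78 and 13.11 on null methylcellulose and 13.72, 12.92, 13.57 and 13.96 after Wy14,643, and treated and vehicle arrays overlap throughout the null groups. Of the 8 carriers of nucleotides and cofactors 7 had positive differences at PFOA 3 mg/kg, and Slc25a33 alone was called. Slc25a26, which carries S-adenosylmethionine, differed by 0.58 ± 0.24 on the log2 scale (limma adjusted p = 0.174). For Slc25a36, a relative of Slc25a33, the log2 difference of 1.23 ± 0.50 rests on replicate 3 of the PFOA 3 mg/kg group, at 11.25 where the other 3 read 7.58 to 8.09.

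Slc25a23, a calcium-regulated ATP-Mg/phosphate carrier, fell in wild-type mice at PFOA 3 mg/kg. Its log2 level was 17.56, 17.76, 17.35 and 17.55 on water and 16.84, 17.02, 16.57 and 17.02 at that dose. The groups do not overlap, and the log2 difference was -0.69 ± 0.18 (SE) with a limma adjusted p of 0.0148. That call is lost without replicate 2 of the water group or replicate 3 of the PFOA group, with a limma adjusted p of up to 0.0798. It is also lost within either array set and with only the compared groups fitted. After Wy14,643 it read 17.39, 17.64, 16.44 and 17.35, against 17.62, 17.74 and 17.41 on methylcellulose, and replicate 3 is the low array. The wild-type PFOA 1 mg/kg arrays read 17.54, 17.23, 17.25 and 17.24. In null mice Slc25a23 read 17.64, 17.36, 17.62 and 17.26 on water, 17.48, 17.58, 17.29 and 17.33 at PFOA 1 mg/kg and 17.07, 17.48, 17.30 and 17.28 at PFOA 3 mg/kg. It read 17.57, 17.64, 17.22 and 17.34 on null methylcellulose and 17.41, 17.59, 17.62 and 17.38 after Wy14,643. The null groups overlap, and no null array is as low as the highest wild-type array at PFOA 3 mg/kg. Its relatives Slc25a24 and Slc25a25 had log2 differences of -1.06 ± 0.48 and -0.01 ± 0.61 at PFOA 3 mg/kg, and neither was called. Slc25a25 differed by -1.72 ± 0.66 on the log2 scale after Wy14,643 (limma adjusted p = 0.119). The untested member of this class, Slc25a41, had log2 differences between -0.60 and 0.47 in a fit that allows missing values, none of them called.

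Slc25a15 exchanges ornithine for citrulline and so links the mitochondrial and cytosolic steps of the urea cycle. In wild-type mice its log2 level was 15.23, 15.47, 15.62 and 15.72 on water and 14.95, 14.45, 14.41 and 15.12 at PFOA 3 mg/kg. The highest treated array is just below the lowest water array. The log2 difference of -0.78 ± 0.24 (SE) had a limma adjusted p of 0.0499, and the call is lost in 12 of 20 alternatives. These include the fits without replicate 2, 3 or 4 of water, without replicate 2 or 3 of PFOA 3 mg/kg and without the array against its label (limma adjusted p of up to 0.181 with 1 array left out). The others are the fits with the silent-gene index as a covariate, with cyclic loess, within either array set, with missing values allowed and with only the compared groups. After Wy14,643 the arrays read 14.73, 15.16, 14.47 and 15.70 on either side of the methylcellulose arrays, 15.38, 14.91 and 14.83, and the log2 difference was -0.02 ± 0.26. Slc25a15 read 15.37, 14.53, 14.85 and 15.34 at PFOA 1 mg/kg, of which 2 lie within the range of the water arrays. In null mice it read 15.83, 15.39, 15.79 and 16.00 on water, 15.36, 15.11, 15.28 and 15.36 at PFOA 1 mg/kg and 15.68, 15.58, 14.64 and 15.52 at PFOA 3 mg/kg. It read 15.51, 15.35, 15.18 and 15.46 on null methylcellulose and 15.52, 15.93, 15.52 and 15.24 after Wy14,643. All 4 null arrays at PFOA 1 mg/kg are below the null water arrays, a log2 difference of -0.47 ± 0.24 that was not called. The response to PFOA 3 mg/kg and that to Wy14,643 differed for this gene by -0.75 ± 0.35 on the log2 scale (limma adjusted p = 0.35). The other amino acid carriers, Slc25a29, Slc25a38 and Slc25a44, had no called difference. Slc25a44, which carries branched-chain amino acids, differed by -0.65 ± 0.22 on the log2 scale after Wy14,643 (limma adjusted p = 0.0764), with no overlap between its groups.

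After Wy14,643 in wild-type mice 2 of the 35 carriers were called, Slc25a5 upwards and Slc25a12 downwards. This is 5.71% of the carriers, close to the 6.1% of all tested probes (2.8% up and 3.3% down), and 12 carriers had an unadjusted p under 0.05. The median log2 difference was -0.12 over the carriers and -0.03 over all probes. Without the array against its label 3 carriers were called, of 6.58% of all probes, Slc25a20 being the addition. Slc25a12 is an aspartate-glutamate carrier of the malate-aspartate shuttle. Its log2 level was 13.87, 13.61 and 13.78 on methylcellulose and 13.45, 13.00, 13.36 and 12.72 after Wy14,643, and the treated arrays are all lower. The log2 difference was -0.62 ± 0.18 (SE), with a limma adjusted p of 0.0335. That call is lost without any of the 3 methylcellulose arrays or without replicate 2 or 4 of Wy14,643 (up to 0.134). It is also lost within the larger array set, with the silent-gene index, with missing values allowed and with only the compared groups fitted. At PFOA 3 mg/kg it read 13.58, 13.44, 13.43 and 13.14, below the water arrays at 13.92, 13.85, 13.96 and 13.86, a log2 difference of -0.50 ± 0.17 (limma adjusted p = 0.0713). Its values at PFOA 1 mg/kg were 13.65, 13.51, 13.98 and 13.47, with replicate 3 above the water arrays and the other 3 below them. In null mice Slc25a12 read 14.31, 14.11, 14.08 and 13.95 on water, 14.04, 13.80, 14.03 and 14.00 at PFOA 1 mg/kg and 13.85, 13.71, 14.04 and 13.51 at PFOA 3 mg/kg. It read 14.22, 14.13, 14.05 and 13.75 on null methylcellulose and 14.02, 13.91, 13.66 and 14.47 after Wy14,643, and no null treatment was separated from its vehicle.

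Slc25a13, the other aspartate-glutamate carrier and the main form in liver, did not go with Slc25a12. Its log2 difference was 0.05 ± 0.12 at PFOA 3 mg/kg, with a 95% interval of -0.19 to 0.30, and -0.12 ± 0.13 after Wy14,643, with an interval of -0.39 to 0.14. Slc25a1, the citrate carrier that feeds lipid synthesis, differed by 0.07 ± 0.15 on the log2 scale at PFOA 3 mg/kg and by 0.09 ± 0.16 after Wy14,643, with 95% intervals within 0.41 of 0. These intervals leave little room for a change the size of that in Slc25a20. Slc25a22, a glutamate carrier, read 14.29, 14.16, 13.95 and 14.02 on the log2 scale on water and 14.94, 14.71, 14.81 and 14.62 at PFOA 3 mg/kg. These groups do not overlap, but the log2 difference of 0.67 ± 0.23 was not called (limma adjusted p = 0.0897). After Wy14,643 it was -0.24 ± 0.25.

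**Figure D3:**
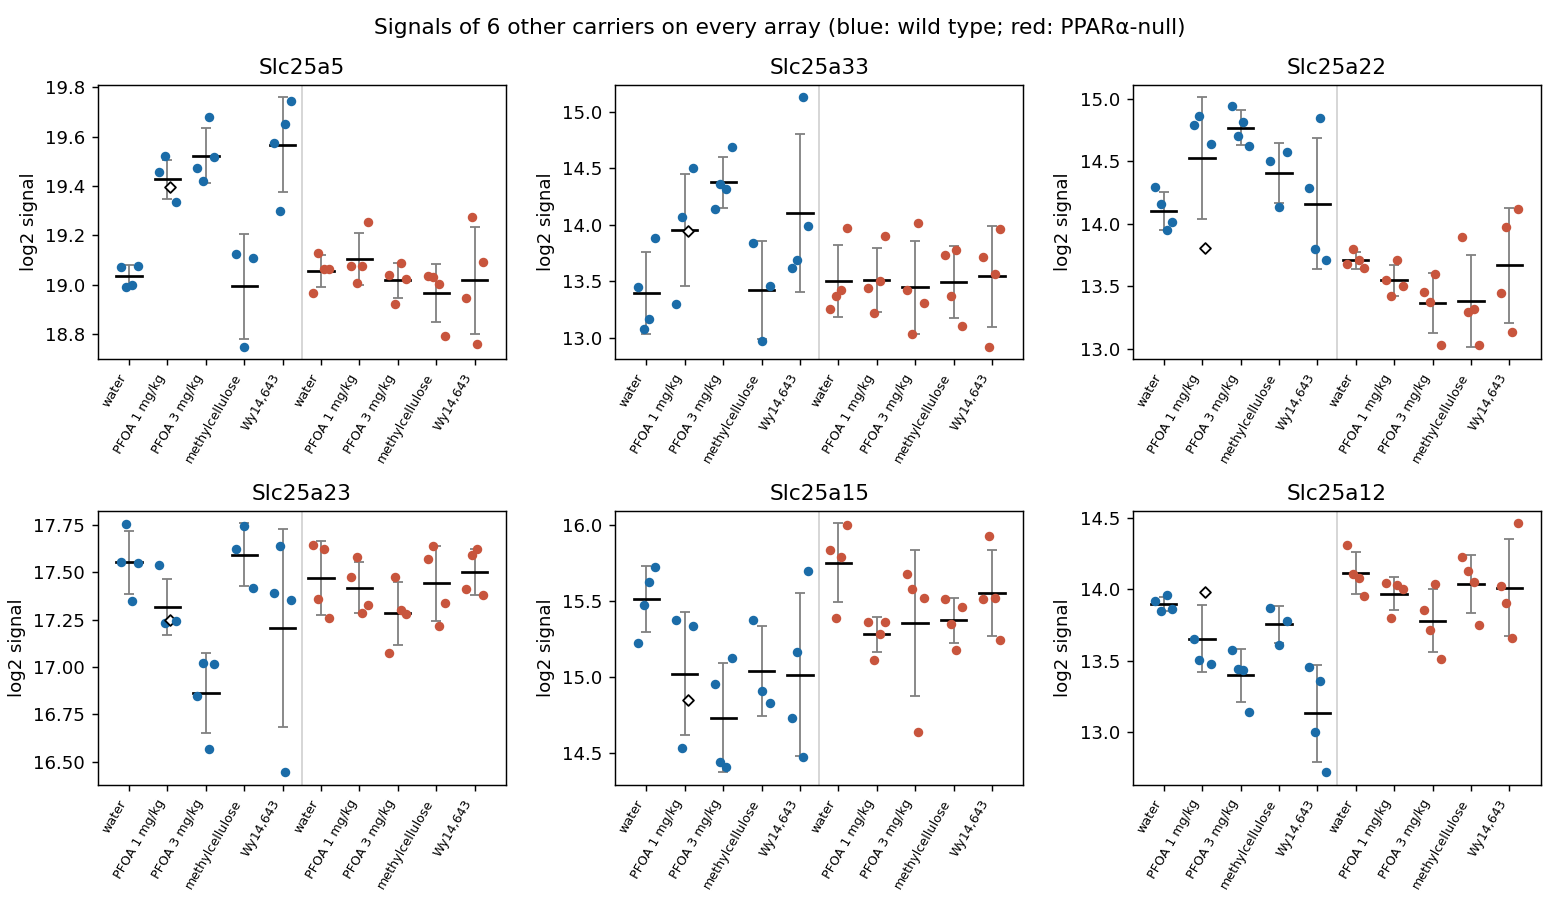
Log2 signal of Slc25a5, Slc25a33, Slc25a22, Slc25a23, Slc25a15 and Slc25a12 on each of the 39 arrays by treatment, wild type in blue and PPARα-null in red; bars are group means, error bars are 1 SD, each panel has its own axis, and the open diamond is the array whose label is replicate 3 of wild-type PFOA 1 mg/kg. Slc25a5 at PFOA 3 mg/kg (19.42 to 19.68) lies above its water arrays (18.99 to 19.08), and Slc25a23 (16.57 to 17.02) lies below its water arrays (17.35 to 17.76).

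The uncoupling proteins, which let protons or anions back across the inner membrane, showed no called difference. Ucp1, best known for heat production in brown fat, had a log2 level of 8.41, 8.36, 8.86 and 8.77 on wild-type water and 9.46, 9.34, 9.44 and 8.28 at PFOA 3 mg/kg. Replicate 4 lies below the water arrays and the other 3 lie above them, and the log2 difference was 0.53 ± 0.35 (limma adjusted p = 0.447). At PFOA 1 mg/kg Ucp1 read 9.54, 9.75, 8.40 and 9.32, and after Wy14,643 it read 9.35, 8.61, 8.49 and 8.84 against 8.81, 8.68 and 10.11 on methylcellulose. In null mice Ucp1 read 9.25, 9.39, 8.48 and 9.01 on water, 9.55, 9.57, 9.22 and 9.65 at PFOA 1 mg/kg and 9.50, 9.05, 8.82 and 10.15 at PFOA 3 mg/kg. It read 8.93, 8.52, 8.01 and 9.52 on null methylcellulose and 9.65, 9.20, 8.71 and 9.09 after Wy14,643, with overlap in each case. Ucp3, known mainly from skeletal muscle, read 7.82, 7.52, 7.78 and 8.17 on wild-type water and 7.61, 7.16, 8.77 and 8.79 at PFOA 3 mg/kg, on the log2 scale. After Wy14,643 it read 7.76, 7.50, 12.38 and 5.51, so that replicate 3 of that group holds the highest value and sets the sign of the difference of 0.60 ± 0.81. Methylcellulose read 7.68, 7.59 and 7.80, and PFOA 1 mg/kg read 7.31, 7.24, 8.89 and 7.60. In null mice Ucp3 read 9.29, 7.62, 7.05 and 6.96 on water, 7.53, 8.79, 8.02 and 7.91 at PFOA 1 mg/kg and 7.72, 7.41, 7.93 and 7.72 at PFOA 3 mg/kg. It read 7.60, 7.59, 7.77 and 7.35 on null methylcellulose and 7.51, 7.49, 6.63 and 7.70 after Wy14,643, and each treated group overlaps its vehicle. With their relatives Slc25a14 and Slc25a27, all 4 genes of this class had log2 differences between 0.26 and 0.53 at PFOA 3 mg/kg in wild-type mice.

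The mitoferrins Slc25a28 and Slc25a37, which import iron, had log2 differences of 0.14 and 0.19 at PFOA 3 mg/kg and of -0.23 and -0.91 after Wy14,643. The second probe of Slc25a37 did not follow the first after Wy14,643 (0.33 ± 0.50 on the log2 scale), so that gene's direction is not settled. Erythroid markers were lower in the same group, with a mean log2 level of 16.24 against 17.45 on methylcellulose, and their part in the mitoferrin values was not tested. Slc25a35 differed by -1.62 ± 0.54 on the log2 scale at PFOA 3 mg/kg (limma adjusted p = 0.0733). Slc25a45 lay below all water arrays on every array at that dose, at 11.11 to 11.78 against 12.11 to 12.50 on the log2 scale, without being called (limma adjusted p = 0.16). Slc25a47, a carrier found mainly in liver, differed by -0.03 ± 0.22 on the log2 scale at PFOA 3 mg/kg and by -0.56 ± 0.23 after Wy14,643 (limma adjusted p = 0.154).

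The other 12 tested members are given by the range of their group means and by their pooled SD within groups, on the log2 scale. Among carriers of cofactors and nucleotides, Slc25a32 (folate) ran from 12.15 to 12.74 with an SD of 0.30, Slc25a16, which serves coenzyme A supply, from 15.31 to 15.75 with an SD of 0.17, and Slc25a42 (coenzyme A) from 8.16 to 10.04 with an SD of 1.01. Slc25a51 (NAD) ran from 6.59 to 8.04 with an SD of 0.94 and Slc25a40 (glutathione) from 7.96 to 8.87 with an SD of 0.56. Among amino acid carriers, Slc25a29 (basic amino acids) ran from 9.51 to 10.27 with an SD of 0.67 and Slc25a38 (glycine) from 11.62, after Wy14,643 in wild type, to 12.42, in null mice on water, with an SD of 0.41. Dim probes such as those of Slc25a51 and Slc25a42 thus varied within groups by about as much as many differences between groups. Slc25a21, the oxodicarboxylate carrier of lysine breakdown, ran from 11.94 in wild-type water to 12.66 in null water with an SD of 0.33, and its genotype difference on water was 0.72 ± 0.24 on the log2 scale (limma adjusted p = 0.363). The uncoupling protein relatives Slc25a14 and Slc25a27 ran from 9.76 to 10.35 and from 8.13 to 9.20. Slc25a46, an outer membrane member that takes part in mitochondrial shape, ran from 9.71 to 10.50, and Slc25a48 from 9.49 to 10.59. Over the 15 differences, 6 of the 35 carriers were called at least once, in 9 instances, and 29 were called in none. The 6 are 17.1% of the carriers, where 10.1% of all probes were called at least once. Without the array that goes against its label there were 13 instances, which include 8 of those 9, and again 6 carriers (17.1%), where 10.9% of all probes were called at least once.

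At PFOA 1 mg/kg in wild-type mice limma called 0 of the 35 carriers, where 0.273% of all tested probes were called, and 2 carriers had an unadjusted p under 0.05. Leaving out the array against its label brought this to 1, Slc25a20, of 0.984% of all probes. The median log2 difference over the carriers was 0.19 and over all probes 0.01. Between the doses, 3 against 1 mg/kg, limma called 0 carriers (0.0277% of all probes; 3 carriers at an unadjusted p under 0.05), with a Slc25a20 difference of 1.02 ± 0.39 on the log2 scale that became 0.29 without the array against its label.

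In PPARα-null mice limma called 0 of 35 carriers at PFOA 3 mg/kg, 0 at PFOA 1 mg/kg and 0 after Wy14,643. The backgrounds were 0.3%, 0.0119% and 0% of all probes, and the carriers with an unadjusted p under 0.05 numbered 4, 1 and 1. Slc25a20 differed by 1.00 ± 0.39 (SE) on the log2 scale at PFOA 3 mg/kg, 1.99-fold, with a limma adjusted p of 0.466. Without the array whose label is replicate 3 of wild-type PFOA 1 mg/kg, the same difference had an SE of 0.22 and a limma adjusted p of 0.0329, and 0.332% of all probes were then called. At PFOA 1 mg/kg it was 0.43 ± 0.39 and after Wy14,643 it was -0.14 ± 0.39 on the log2 scale. Of 3 measured stellate cell markers, Col1a1 had a mean log2 level of 14.49 in the same null PFOA 3 mg/kg group against 11.39 in null water, Dcn had 18.13 against 18.58 and Des 10.19 against 10.01. The mean over these markers was 14.27, carried by Col1a1, and its part in the result was not tested. Slc25a24, an ATP-Mg/phosphate carrier, differed by -1.72 ± 0.48 on the log2 scale at PFOA 1 mg/kg in null mice, with an adjusted p of 0.807 over all probes in limma's fit.

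The difference between genotypes on vehicle alone was confined, among called carriers, to Slc25a20. On water the log2 difference, null minus wild type, was -1.84 ± 0.39 (SE), with a limma adjusted p of 0.0476. On methylcellulose it was -1.94 ± 0.42, with a limma adjusted p of 0.0386. Slc25a20 was thus the 1 called carrier of 35 on each vehicle (2.86%), where 0.127% and 0.186% of all probes were called, and 3 and 6 carriers had an unadjusted p under 0.05. No null vehicle array reached any wild-type vehicle array. Without the array against its label the limma adjusted p was 1.08e-05 on water and 1.04e-05 on methylcellulose. The call is lost when any 1 of the 8 water arrays, or any 1 of the 7 methylcellulose arrays, is left out, while the log2 difference stays between -1.90 and -1.64 on water and between -2.10 and -1.81 on methylcellulose over all alternatives. Slc25a22 was lower in null mice on methylcellulose by -1.02 ± 0.25 on the log2 scale (limma adjusted p = 0.0783), and was called without the array against its label (limma adjusted p = 0.0305). On water its log2 difference was -0.40 ± 0.23. The median log2 difference over the carriers was 0.18 on water and -0.20 on methylcellulose, and over all probes 0.04 and -0.06.

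**Figure D4:**
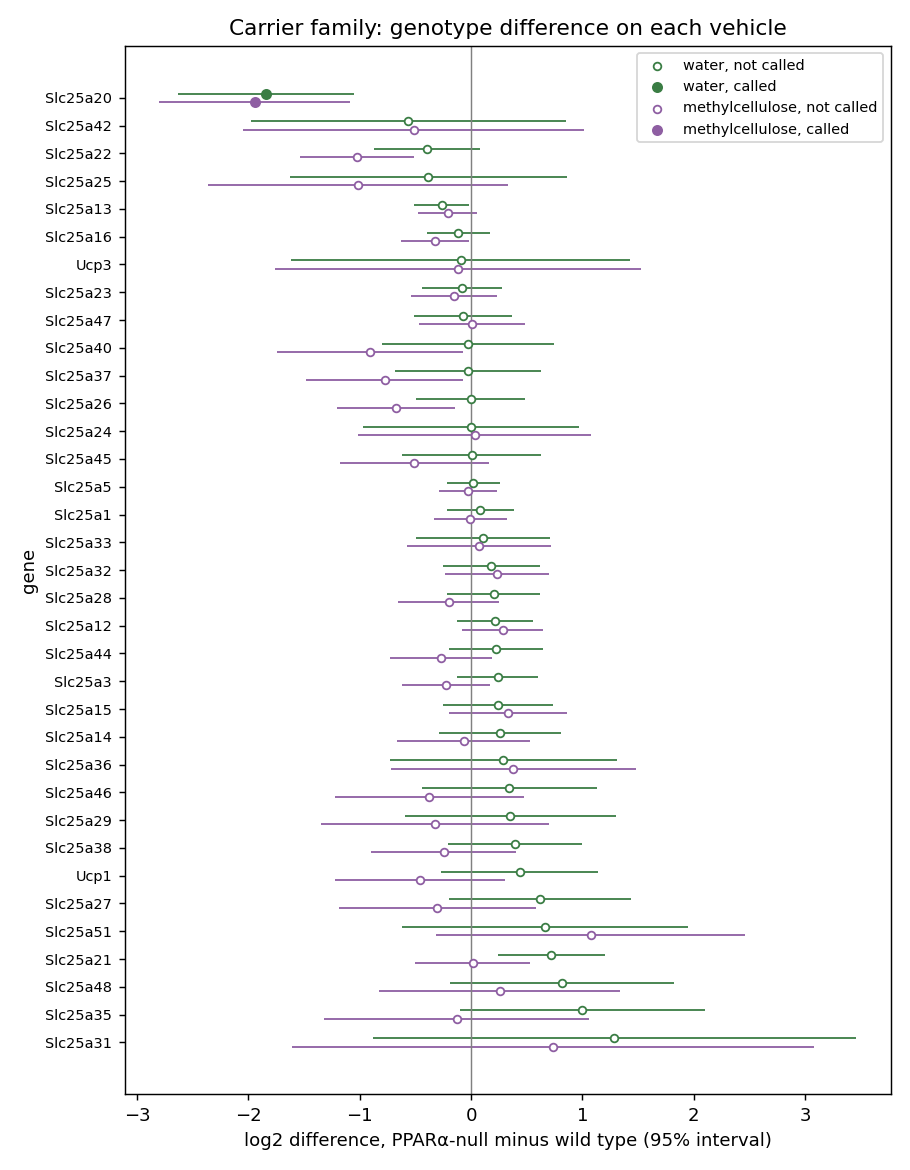
Log2 difference between PPARα-null and wild-type mice on water (green) and on methylcellulose (purple) for the 35 tested carriers, with 95% intervals from the limma fit; filled points have an adjusted p under 0.05. Slc25a20 is the only gene with filled points, at -1.84 on water and -1.94 on methylcellulose, and the intervals of most other carriers include 0.

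Tested directly, no carrier's response differed between genotypes in the fit to all arrays. Limma called 0 of 35 carriers for PFOA 3 mg/kg, 0 for PFOA 1 mg/kg and 0 for Wy14,643, where 0.415%, 0% and 1.24% of all probes were called and 5, 3 and 6 carriers had an unadjusted p under 0.05. For Slc25a20 the response to PFOA 3 mg/kg was smaller in null mice by -0.74 ± 0.55 on the log2 scale, with a 95% interval of -1.85 to 0.38, which includes an equal response. Without the array against its label the difference was the same with an SE of 0.31 and a 95% interval of -1.38 to -0.10, which lies below 0, and it was still not called over all probes (limma adjusted p = 0.37). The response to Wy14,643 differed by -1.29 ± 0.57 (limma adjusted p = 0.268), and without the array against its label this was called (limma adjusted p = 0.0334, where 1.72% of all probes were called). For Slc25a5 the responses differed by -0.53 ± 0.17 for PFOA 3 mg/kg and by -0.52 ± 0.17 for Wy14,643 on the log2 scale, with limma adjusted p of 0.196 and 0.124. For Slc25a33 the difference of response to PFOA 3 mg/kg was -1.04 ± 0.42 (limma adjusted p = 0.342). A call in wild-type mice alone therefore does not show that these carriers respond differently in null mice.

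The compounds were compared by their responses in wild-type mice, each against its own vehicle, at the single dose of Wy14,643 and the higher dose of PFOA. Limma called 0 of 35 carriers (0.0119% of all probes; 3 carriers at an unadjusted p under 0.05). For Slc25a20 the response to PFOA exceeded that to Wy14,643 by 0.58 ± 0.57 on the log2 scale, with a 95% interval of -0.58 to 1.75, and for Slc25a5 the difference was -0.09 ± 0.17, with an interval of -0.44 to 0.27. For Slc25a22 it was 0.91 ± 0.34 (limma adjusted p = 0.262). The vehicles themselves, methylcellulose against water, gave 0 called carriers in either genotype, with 0% of all probes called, and 0 and 4 carriers at an unadjusted p under 0.05 by limma in wild-type and null mice.

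The carriers whose group means ran most like those of Slc25a20 were Slc25a26, Slc25a22 and Slc25a5, with Pearson r of 0.89, 0.87 and 0.82 over the 10 groups and 0.74, 0.76 and 0.68 over the 39 arrays. Slc25a42, the coenzyme A carrier, and Slc25a33 followed, with r of 0.78 and 0.77 over the groups and 0.46 and 0.52 over the arrays. The most opposite were Slc25a12, Slc25a15 and Slc25a35, with r of -0.89, -0.84 and -0.77 over the groups and -0.80, -0.50 and -0.59 over the arrays. All these values share the same arrays and their scaling and are descriptions. Over all 35 other carriers 17 values of r were positive and 18 negative, with a median of -0.01, so the family did not run as 1 block.

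Not every listed partner gene was tested. Tested were 6 of 8 genes of the carnitine shuttle and 5 of 6 of the malate-aspartate and glycerol phosphate shuttles. So were 4 of 6 citrate and pyruvate partners, 5 of 6 urea cycle enzymes and 8 of 10 carrier import genes. Of the 6 carnitine shuttle genes, 3 rose at PFOA 3 mg/kg in wild-type mice, where 3.37% of all probes rose. They are the carnitine acetyltransferase Crat, by 2.98 ± 0.46 (SE) on the log2 scale, the acyl-CoA synthetase Acsl5, by 1.46 ± 0.21, and the inner-membrane acyltransferase Cpt2, by 1.35 ± 0.30. After Wy14,643 Crat, Acsl5 and Crot, a peroxisomal carnitine acyltransferase, rose, 3 of the same 6, with log2 differences of 2.36, 1.60 and 1.54, where 2.8% of all probes rose. Of 5 shuttle enzymes at PFOA 3 mg/kg, where 5.82% of all probes were called, the glycerol phosphate dehydrogenases Gpd1 and Gpd2 rose, by 0.71 and 0.99 on the log2 scale, and Got1, the cytosolic aspartate aminotransferase, was lower, at -1.49, and none was called after Wy14,643. Of 4 partners of the citrate and pyruvate carriers, the malic enzyme Me1 rose with both compounds, by 2.26 and 2.37 on the log2 scale, 1 of 4 in each case beside the same 3.37% and 2.8% of all probes, while the citrate carrier itself was not called.

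Of 5 urea cycle enzymes, the partners of Slc25a15, and against 2.46% of all probes lower at PFOA 3 mg/kg and 3.3% after Wy14,643, Asl was lower with both compounds, with log2 differences of -1.14 ± 0.22 (PFOA 3 mg/kg) and -1.12 ± 0.24 (Wy14,643), and Otc was lower after Wy14,643, at -1.27 ± 0.27. None of the 5 was called upwards. Of 8 genes for the import of carriers into the inner membrane, Timm10, Timm8a1 and Timm22 rose at PFOA 3 mg/kg, by 0.83, 0.71 and 0.65 on the log2 scale, 3 of 8 where 3.37% of all probes rose. After Wy14,643 limma called 0 of these 8. The 3 outer membrane channels Vdac1, Vdac2 and Vdac3 gave 0 calls with either compound, within -0.41 and 0.13 on the log2 scale. In null mice none of the tested partners was called in any comparison of a treatment with its vehicle. Tested directly, the response to Wy14,643 differed between genotypes, null minus wild type, by -2.63 ± 0.68 on the log2 scale for Crat (limma adjusted p = 0.0449), by -1.60 ± 0.31 for Acsl5 (limma adjusted p = 0.00686) and by 1.45 ± 0.36 for Otc (limma adjusted p = 0.0387), where 1.24% of all probes were called. No partner's response to PFOA was called as different between genotypes.

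Markers of liver cell types were measured on the same arrays. Of 7 hepatocyte markers 6 were measured, with group means of their average log2 level between 19.84 and 20.25. The lowest were wild-type Wy14,643 at 19.84, wild-type PFOA 3 mg/kg at 19.85 and null PFOA 3 mg/kg at 19.96. The markers did not move together in wild-type mice. Ahsg was 19.95 at PFOA 3 mg/kg against 20.76 on water, and 19.91 after Wy14,643 against 20.79 on methylcellulose. Tat and Apoa1 were also lower in both comparisons. Alb and Ttr differed little, Ttr being 20.72 against 20.78 and 20.63 against 20.67. Cyp2e1 was higher at PFOA 3 mg/kg, at 20.94 against 20.85, and lower after Wy14,643. Of 6 Kupffer cell markers 5 were measured, with a mean log2 level of 12.23 (12.09 to 12.40 over arrays) at PFOA 3 mg/kg against 12.72 (12.51 to 12.84) on water in wild-type mice. After Wy14,643 it was 12.40 against 12.89 on methylcellulose. Clec4f, Vsig4, Cd5l and Timd4 were lower in both comparisons. Marco was higher after Wy14,643, at 9.01 against 8.59, and was 8.77 against 8.85 at PFOA 3 mg/kg. The part of these markers in the carrier results was not tested.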

How the data were processed

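The arrays were Applied Biosystems Mouse Genome Survey arrays with liver RNA, per the labels' protocols and the series' design text. The deposited table holds the authors' processed log2 values, 33012 probes on 39 arrays, with medians of 9.14 on every array and 14823 missing values; the log base was taken as 2 from the range of 4.85 to 21.5, with software and normalisation not given in the sources used here. Genes were named from the platform annotation (14411 probes with 1 symbol, 247 with several, 18354 with none). The 25295 probes without a missing value were fitted in limma 3.58.1 (R 4.3.3) with a mean for each of the 10 groups, 29 residual degrees of freedom and Benjamini-Hochberg adjustment over all of them within each of 15 differences. The fit was first tested on simulated data. The text gives full values for Slc25a20, the uncoupling proteins and every carrier with an adjusted p under 0.05. The carriers and the gene lists were chosen with earlier results of these data known. Alternatives were array set, silent-gene index, replicate block, single arrays left out, missing values, probe filter, probe averaging, cyclic loess, an intensity trend and fits to the compared groups alone. No counts lie behind these values, and the number of arrays limits the precision.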

Additional observations from a re-analysis of the deposited data

Results flagged for a closer look

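Among the 8 carriers with full values, 72 groups of 4 arrays were examined, and in 7 of them the highest or lowest array stood apart, with a gap to its neighbour of more than 0.829 of the group's range. Chance alone flags about 1 in 20 groups. Slc25a20 stood apart at 12.52 on replicate 3 of wild-type PFOA 1 mg/kg, where the other arrays read 15.37 to 15.60 on the log2 scale, and at 12.61 on replicate 3 of null PFOA 3 mg/kg, where the others read 13.33 to 13.40. Slc25a15 was at 14.64 on that same null array, against 15.52 to 15.68. Ucp1 was at 8.28 on replicate 4 of wild-type PFOA 3 mg/kg, against 9.34 to 9.46. Slc25a23 was at 17.54 on replicate 1 of wild-type PFOA 1 mg/kg, against 17.23 to 17.25. Slc25a5 was at 18.79 on replicate 4 of null methylcellulose, against 19.00 to 19.04. Slc25a12 was at 13.80 on replicate 2 of null PFOA 1 mg/kg, against 14.00 to 14.04.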

How the results depend on the processing

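Numbers of called carriers changed with several settings, and the cause was not tested. Where fewer arrays were fitted, a change in precision cannot be told apart from a difference between arrays. For PFOA 3 mg/kg in wild type (5) there were 1 within the smaller array set, 0 within the larger, 3 with missing values allowed, 1 with only the compared groups fitted, and 2 to 5 when 1 array was left out. Of these calls, those of Slc25a15 and Slc25a33 were lost with the silent-gene index, and that of Slc25a15 with cyclic loess. For Wy14,643 in wild type (2) there were 0 within the larger set, 1 with the silent-gene index and 1 with missing values allowed. There were 0 with only the compared groups, and 0 to 3 with 1 array left out. For null against wild type on water (1) there were 0 within the larger set, with the index and with missing values allowed, and 0 to 1 with 1 array left out. On methylcellulose (1) there were 0 within the smaller set, the larger set, with the index, with missing values allowed, with cyclic loess and with only the compared groups, 2 with probes above the median signal, 2 with an intensity trend, and 0 to 2 with 1 array left out. Leaving out 1 array gave 0 to 1 for PFOA 1 mg/kg in wild type, PFOA 3 mg/kg in null mice and the genotype difference in the response to Wy14,643, the 1 in each case without replicate 3 of wild-type PFOA 1 mg/kg. The genotype difference in the response to PFOA 3 mg/kg gave 1 with only the compared groups, and that to Wy14,643 gave 1 with probes above the median signal. No called value changed sign. Replicate numbers recur across groups, and the labels do not say that they mark a shared animal or day. They go with the array sets (10 of 10 arrays numbered 2 are in the larger set, 8 of 10 numbered 1 in the smaller), and same-number residual correlations ran from -0.26 to 0.48 with a median of 0.10, so no pairing was assumed. With the replicate block 7 carriers were called at PFOA 3 mg/kg in wild type, 3 after Wy14,643 and 1 on each vehicle between genotypes. Apart from the fit without replicate 3 of wild-type PFOA 1 mg/kg, the share of all probes called was not computed for these settings. Their counts therefore cannot be told apart from a change in calls over all probes. Small changes of dim probes lie beyond what 3 or 4 arrays per group resolve.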
